A study of Homo sapiens with 24 samples.

Results

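A set of 10 genes that hypoxia-inducible factor (HIF) is known to switch on, all outside glycolysis, was followed through 2 human biliary cancer cell lines exposed to sorafenib with or without an inhibitor of mitochondrial complex I. The genes are ANGPTL4, CA9, VEGFA, BNIP3, BNIP3L, ADM, NDRG1, P4HA1, P4HA2 and EGLN3. They were taken by symbol from a list of known HIF targets, and all 10 were found among the 78724 gene identifiers of each line's count table. OCUG-1 is a gallbladder cancer line grown in DMEM and HuCCT1 an intrahepatic cholangiocarcinoma line grown in RPMI-1640, so line and medium cannot be told apart. Each line had 4 arms of 72 h with 3 biological replicates: 1.25 µM sorafenib with 1 µM IACS-010759 (the combination), vehicle, 1.25 µM sorafenib and 10 µM sorafenib. The vehicle was DMSO, at up to 0.1%. Sorafenib is a multikinase inhibitor and IACS-010759 blocks complex I of the respiratory chain. IACS-010759 was never given by itself, so its addition is read from the combination set against 1.25 µM sorafenib.

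HIF joins an alpha subunit (HIF1A or EPAS1) that is destroyed when oxygen is plentiful to a stable partner (ARNT). Prolyl hydroxylases of the EGLN family use oxygen to mark the alpha subunit, and VHL then directs it to degradation. When oxygen runs short the alpha subunit builds up and its targets are transcribed, in biliary cancers as in other solid tumours. Because complex I is the main entry of electrons into respiration, its inhibition lowers the oxygen that cells consume and can leave more for the hydroxylases. Several of the 10 genes have other known inputs: ANGPTL4 is also a target of the lipid-sensing PPAR receptors, and NDRG1, VEGFA and ADM respond to nutrient and protein-folding stress.

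The reads ended in whole-number gene counts, 14388855 to 24019011 a library in OCUG-1 and 18238834 to 30693736 in HuCCT1. Levels are given as CPM, counts scaled to 1000000 a library after adjustment by the trimmed mean of M values. The tests were edgeR quasi-likelihood tests, a change was called where the p adjusted over all genes tested (Benjamini-Hochberg) was under 0.05, and log2 fold changes are given ± SE. Of the biliary markers, 7 of 8 averaged above 10 CPM in OCUG-1 and 8 of 8 in HuCCT1. In OCUG-1 CDH1, at 2.02 CPM, did not pass and KRT7 just passed at 12.3 CPM, against 141 and 4821 CPM in HuCCT1. KRT8 averaged 2381 CPM in OCUG-1 and 1777 CPM in HuCCT1. In either line 0 of 5 endothelial and 0 of 5 immune markers passed 10 CPM. COL1A1, a fibroblast collagen, averaged 61.2 CPM in OCUG-1 and 23.4 CPM in HuCCT1, and 2 of 6 fibroblast markers passed in each line. Of 5 hepatocyte markers 1 passed in OCUG-1, FGB at 39.3 CPM, and 0 in HuCCT1. The summed level of the 8 biliary markers moved with the arms in OCUG-1, at 1761 CPM in the combination and 5158 CPM with vehicle, 6794 CPM at 1.25 µM and 1562 CPM at 10 µM, and its part in the results was not tested. In HuCCT1 it was 9859 CPM in the combination and 10414, 11710 and 8513 CPM along the same series. In HuCCT1, replicate 3 of the vehicle, 1.25 µM and 10 µM arms stood apart from its companions: the chi-square per degree of freedom was 31.9 to 59.0 against replicates 1 and 2, and 6.08 to 13.5 between replicates 1 and 2. The share of counts on mitochondrial DNA moved with the arms, at 5.43% in the OCUG-1 combination and 12.2% with vehicle, 11.1% at 1.25 µM and 5.95% at 10 µM, and in HuCCT1 at 11.4% in the combination and 11%, 17.9% and 9.88% along the same series. Its part in the results was not tested, and leaving out the genes of mitochondrial DNA ended 1 call of a member.

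Of the 10 genes, 7 had a promoter window in RefSeq (GRCh38.p14; 250 bases before to 50 after the gene's start). The core of the hypoxia response element, ACGTG on either strand, lay in 4 of these 7 windows, against 21.4% of 35116 windows of the same length. Those 4 windows are shown because they share the core while the calls of their genes differed, as described further on. Capitals mark ACGTG or its reverse complement CACGT, which overlap in BNIP3. The windows are chr19:8363905-8364204 on the plus strand for ANGPTL4, chr9:35673678-35673977 on the plus strand for CA9, chr10:131981874-131982173 on the minus strand for BNIP3 and chr10:73096817-73097116 on the minus strand for P4HA1, each written 5′ to 3′ along its gene.
ANGPTL4: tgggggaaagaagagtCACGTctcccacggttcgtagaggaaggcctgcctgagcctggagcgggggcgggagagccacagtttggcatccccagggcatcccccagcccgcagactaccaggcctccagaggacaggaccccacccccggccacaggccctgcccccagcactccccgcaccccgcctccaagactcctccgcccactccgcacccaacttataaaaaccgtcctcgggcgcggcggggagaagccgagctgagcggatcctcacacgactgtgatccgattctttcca
CA9: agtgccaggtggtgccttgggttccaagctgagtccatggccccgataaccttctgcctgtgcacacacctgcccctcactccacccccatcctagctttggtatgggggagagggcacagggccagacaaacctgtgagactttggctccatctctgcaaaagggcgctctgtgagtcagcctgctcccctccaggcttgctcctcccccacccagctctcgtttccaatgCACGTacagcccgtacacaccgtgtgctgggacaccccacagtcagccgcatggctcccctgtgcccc
BNIP3: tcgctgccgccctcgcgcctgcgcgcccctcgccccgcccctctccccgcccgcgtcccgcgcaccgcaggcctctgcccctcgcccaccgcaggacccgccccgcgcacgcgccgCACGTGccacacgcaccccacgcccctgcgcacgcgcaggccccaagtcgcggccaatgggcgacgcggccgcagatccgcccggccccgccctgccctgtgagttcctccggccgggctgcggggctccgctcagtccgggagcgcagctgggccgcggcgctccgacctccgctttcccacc
P4HA1: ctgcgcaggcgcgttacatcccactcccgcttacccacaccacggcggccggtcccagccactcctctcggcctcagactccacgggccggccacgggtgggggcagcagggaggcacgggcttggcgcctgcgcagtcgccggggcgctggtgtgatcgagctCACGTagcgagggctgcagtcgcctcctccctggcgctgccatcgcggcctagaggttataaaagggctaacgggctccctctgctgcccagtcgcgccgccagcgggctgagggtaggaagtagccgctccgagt
Counted from the gene's start, the match lay at -234 in ANGPTL4, at -18 in CA9, at -133 on the gene's strand and -134 on the other strand in BNIP3, and at -86 in P4HA1. In ANGPTL4, CA9 and P4HA1 it was on the other strand. RefSeq's start differs from the end of the gene span given with each gene below, which is that of GENCODE 29 and covers all its annotated transcripts. The related core GCGTG, on either strand, was found 4 times in the BNIP3 window and 1 time in that of ADM, against 36.5% of all windows, and 5 of 7 members held either core, against 48.4% of all windows. P4HA2 and EGLN3 held neither core in this window. A match is a description of letters and not of binding.

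**Figure D1:**
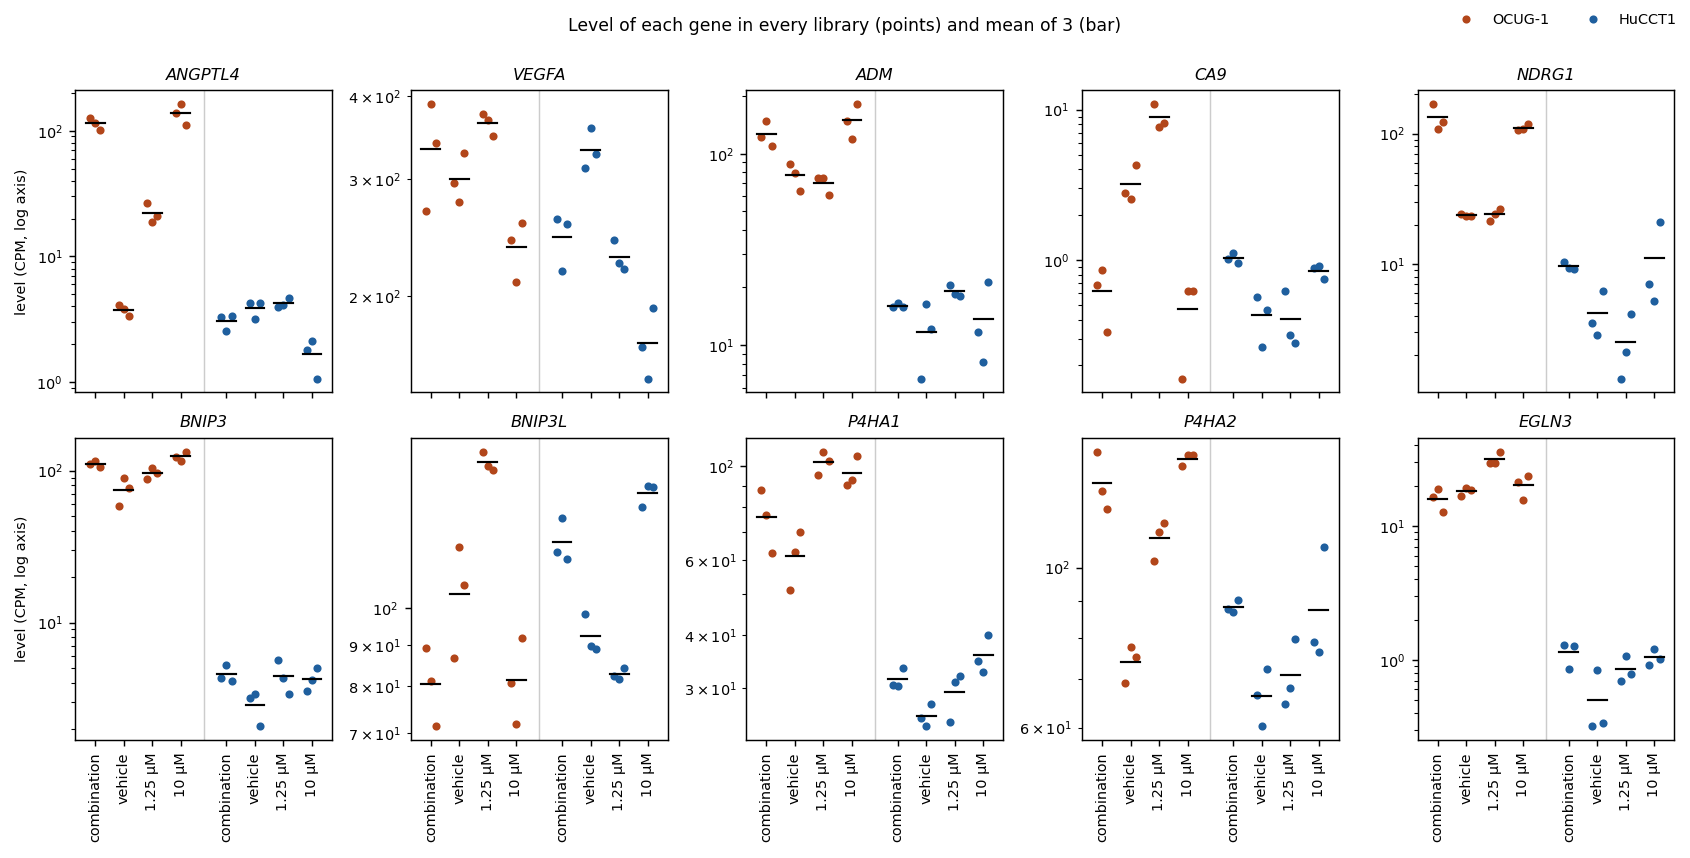
Level of each of the 10 genes in every library (points, CPM on a log axis) with the mean of 3 replicates (bars), for the combination, vehicle, 1.25 µM and 10 µM sorafenib in OCUG-1 (left of each panel) and HuCCT1 (right). ANGPTL4 climbs along the OCUG-1 dose series and not in HuCCT1, while CA9 in OCUG-1 is highest at 1.25 µM and lowest in the combination and at 10 µM.

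Of the 10 genes, 3 encode secreted factors, and among them ANGPTL4 spanned the widest range in OCUG-1. ANGPTL4 (ENSG00000167772, chr19:8363289-8374373 on the plus strand) encodes an inhibitor of lipoprotein lipase. In OCUG-1 it stood at 126, 115 and 102 CPM in the combination, and along the sorafenib series at 4.07, 3.79 and 3.34 CPM with vehicle, 26.5, 18.7 and 21.1 CPM at 1.25 µM and 139, 163 and 110.5 CPM at 10 µM. The vehicle, 1.25 µM and 10 µM libraries did not overlap, and the combination lay within the range of the 10 µM arm or just under it. ANGPTL4 rose at 1.25 µM against vehicle (log2 fold change of 2.56 ± 0.18, adjusted p = 1.66e-07) and rose 36.8-fold at 10 µM (log2 fold change of 5.20 ± 0.18, adjusted p = 2.76e-13). It also rose when IACS-010759 was added to 1.25 µM sorafenib (log2 fold change of 2.38 ± 0.15, adjusted p = 5.46e-10).

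ANGPTL4 in HuCCT1 had a vehicle level like that in OCUG-1 and was called higher in no comparison. Its libraries had 3.28, 2.54 and 3.34 CPM in the combination, 4.24, 3.17 and 4.27 CPM with vehicle, 3.95, 4.11 and 4.66 CPM at 1.25 µM and 1.79, 2.12 and 1.07 CPM at 10 µM. The 10 µM libraries all lay under those of the other 3 arms. ANGPTL4 fell at 10 µM against vehicle (log2 fold change of -1.22 ± 0.24, adjusted p = 0.00154) and against 1.25 µM (log2 fold change of -1.34 ± 0.24, adjusted p = 0.000921). At 1.25 µM its log2 fold change was 0.12 ± 0.23, adjusted p = 0.759, and on adding IACS-010759 it was -0.47 ± 0.23, adjusted p = 0.195. The calls at 10 µM also held without the 3 HuCCT1 libraries that stood apart, with a log2 fold change of -0.95, adjusted p = 0.00279 against vehicle and of -1.06, adjusted p = 0.000935 against 1.25 µM.

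VEGFA, the angiogenic growth factor (ENSG00000112715, chr6:43770184-43786487 on the plus strand), was called in OCUG-1 only in comparisons with the 10 µM arm. Its OCUG-1 values were 269, 389 and 339.7 CPM in the combination, 295, 277 and 328 CPM with vehicle, 376, 368 and 348 CPM at 1.25 µM and 243, 210.1 and 258 CPM at 10 µM. The 10 µM libraries lay under all others. VEGFA fell at 10 µM against 1.25 µM (log2 fold change of -0.62 ± 0.12, adjusted p = 0.0003) and, by less, against vehicle (log2 fold change of -0.34 ± 0.12, adjusted p = 0.0225). The second call was lost without vehicle replicate 3 or without 10 µM replicate 2, at adjusted p = 0.0842 to 0.102 and log2 fold changes of -0.28 to -0.26. On adding IACS-010759 the log2 fold change was -0.13 ± 0.12, adjusted p = 0.377.

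In HuCCT1, VEGFA was lower in every drug arm than with vehicle. It had 261, 218 and 256 CPM in the combination, 312, 358 and 327 CPM with vehicle, 243, 224 and 219 CPM at 1.25 µM and 168, 150.0 and 191 CPM at 10 µM. Every library of a drug arm lay under every vehicle library. VEGFA fell at 1.25 µM (log2 fold change of -0.54 ± 0.11, adjusted p = 0.00399), at 10 µM (log2 fold change of -0.97 ± 0.11, adjusted p = 2.04e-05) and in the combination (log2 fold change of -0.44 ± 0.11, adjusted p = 0.0109), all against vehicle. The call in the combination was lost without combination replicate 2, at a log2 fold change of -0.36 and adjusted p = 0.0674. Adding IACS-010759 to 1.25 µM gave a log2 fold change of 0.10 ± 0.11, adjusted p = 0.613.

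ADM encodes adrenomedullin, a peptide that widens blood vessels (ENSG00000148926, chr11:10304680-10307397 on the plus strand). Its OCUG-1 libraries had 122, 148 and 109.5 CPM in the combination, 88, 78.9 and 63.9 CPM with vehicle, 74.8, 74.4 and 60.5 CPM at 1.25 µM and 149, 119.8 and 182 CPM at 10 µM. The combination and the 10 µM libraries lay above all vehicle and 1.25 µM libraries. ADM rose at 10 µM against vehicle (log2 fold change of 0.96 ± 0.15, adjusted p = 3.26e-05) and in the combination against 1.25 µM (log2 fold change of 0.86 ± 0.15, adjusted p = 0.000139), while 1.25 µM alone gave a log2 fold change of -0.14 ± 0.15, adjusted p = 0.602. HuCCT1 had 15.8, 16.5 and 15.9 CPM in the combination, 6.68, 16.4 and 12.1 CPM with vehicle, 20.7, 18.6 and 18 CPM at 1.25 µM and 11.7, 8.15 and 21.4 CPM at 10 µM. The vehicle and 10 µM libraries of HuCCT1 were widely spread and overlapped, and no comparison called ADM in that line, with adjusted p values from 0.139 to 0.659.

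CA9 encodes a carbonic anhydrase of the cell surface that is often used as a marker of hypoxia (ENSG00000107159, chr9:35673856-35681159 on the plus strand). It fell further in OCUG-1 than any other member. In OCUG-1 it had 0.685, 0.862 and 0.332 CPM in the combination, 2.78, 2.53 and 4.29 CPM with vehicle, 10.9, 7.71 and 8.14 CPM at 1.25 µM and 0.163, 0.625 and 0.623 CPM at 10 µM. Raw counts were only 12, 18 and 6 in the combination and 4, 14 and 11 at 10 µM. The 1.25 µM libraries lay above all others, and the combination and 10 µM libraries lay below all vehicle libraries. CA9 rose at 1.25 µM against vehicle (log2 fold change of 1.47 ± 0.30, adjusted p = 0.00554), then fell at 10 µM (log2 fold change of -2.80 ± 0.39, adjusted p = 5.59e-06) and in the combination (log2 fold change of -2.33 ± 0.38, adjusted p = 3.66e-05), both against vehicle. It also fell on adding IACS-010759 to 1.25 µM (log2 fold change of -3.80 ± 0.36, adjusted p = 7.11e-08).

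HuCCT1 held CA9 at or near 1 CPM and below. It had 1.01, 1.12 and 0.96 CPM in the combination, 0.566, 0.264 and 0.465 CPM with vehicle, 0.627, 0.316 and 0.281 CPM at 1.25 µM and 0.879, 0.917 and 0.746 CPM at 10 µM, from raw counts of 5 to 32. All combination libraries lay above all libraries of the other arms. CA9 rose in the combination against 1.25 µM (log2 fold change of 1.37 ± 0.39, adjusted p = 0.0316) and against vehicle (log2 fold change of 1.21 ± 0.37, adjusted p = 0.0297). The call against 1.25 µM was lost without 1.25 µM replicate 2 or 3 or any of the 3 combination replicates, at log2 fold changes of 1.19 to 1.41 and adjusted p = 0.0731 to 0.146. The call against vehicle was lost without vehicle replicate 2 or 3 or any combination replicate, at 0.98 to 1.26 and adjusted p = 0.0647 to 0.0983.

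CA9 shares 643 exon bases, 38.5% of its annotated exons, with ARHGEF39 on the opposite strand, and whether counting used strand is not given in the sources used here. Reads from the shared bases therefore cannot be assigned with certainty. Over both lines, the count of ARHGEF39 reached up to 12387.5% of that of CA9 in a library. ARHGEF39 averaged 6.19 ± 1.32 CPM in the OCUG-1 combination, 40.6 ± 6.74 CPM with vehicle, 37.4 ± 7.09 CPM at 1.25 µM and 6.55 ± 1.0 CPM at 10 µM (SD, n = 3 each). It was thus lower where CA9 was lower, in the combination and at 10 µM, but at 1.25 µM, where CA9 rose, its log2 fold change was -0.12 ± 0.16, adjusted p = 0.673. In HuCCT1 it averaged 34 ± 3.03 CPM in the combination, 17.2 ± 2.74 CPM with vehicle, 38.5 ± 7.75 CPM at 1.25 µM and 26.7 ± 11.7 CPM at 10 µM. On adding IACS-010759 it gave a log2 fold change of -0.18 ± 0.26, adjusted p = 0.704 in HuCCT1, where CA9 rose, and in the combination against vehicle, where CA9 also rose, it rose too (log2 fold change of 0.98 ± 0.26, adjusted p = 0.0196). Its part in the CA9 counts was not tested.

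**Figure D2:**
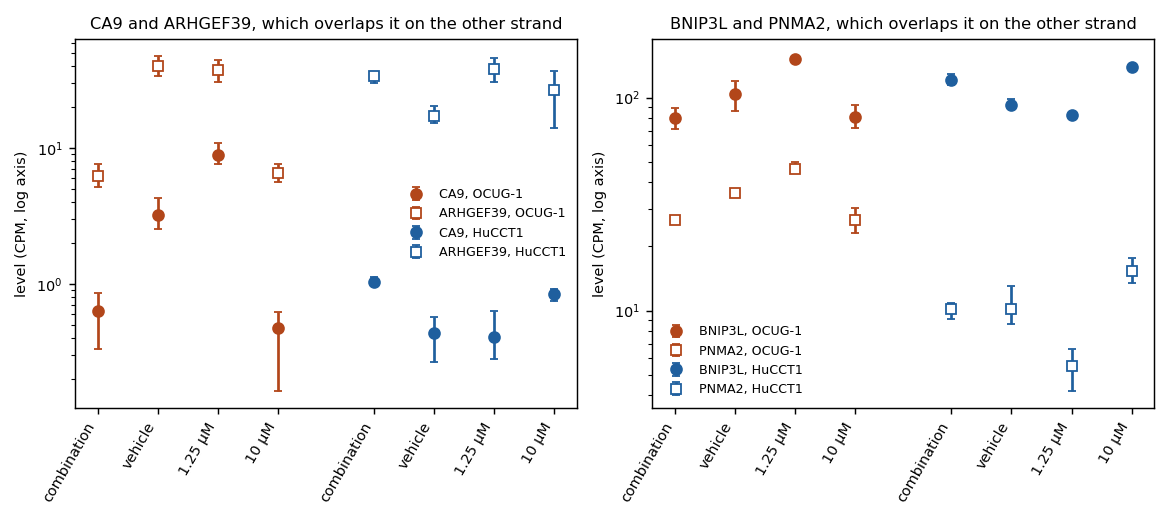
Mean level (CPM, log axis; bars span the lowest to the highest of 3 libraries) of CA9 with ARHGEF39 (left) and of BNIP3L with PNMA2 (right), the genes that overlap them on the opposite strand, by arm and line. In OCUG-1 both CA9 and ARHGEF39 are low in the combination and at 10 µM, whereas at 1.25 µM only CA9 stands above its vehicle libraries.

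BNIP3 and BNIP3L encode receptors on the outer mitochondrial membrane that mark mitochondria for autophagy. BNIP3 (ENSG00000176171, chr10:131966455-131982013 on the minus strand) had 111, 115 and 106 CPM in the OCUG-1 combination, 58.9, 88.8 and 77.2 CPM with vehicle, 87.5, 105 and 96.3 CPM at 1.25 µM and 123, 116 and 133 CPM at 10 µM. The 10 µM and combination libraries lay above all vehicle libraries. It rose at 10 µM (log2 fold change of 0.73 ± 0.12, adjusted p = 5.56e-05) and in the combination (log2 fold change of 0.56 ± 0.12, adjusted p = 0.000757) against vehicle, and gave a log2 fold change of 0.36 ± 0.12, adjusted p = 0.0691 at 1.25 µM. In HuCCT1 it was far lower, at 4.33, 5.24 and 4.11 CPM in the combination, 3.18, 3.38 and 2.07 CPM with vehicle, 5.64, 4.31 and 3.37 CPM at 1.25 µM and 3.55, 4.2 and 5.01 CPM at 10 µM. No HuCCT1 comparison called BNIP3 in the full set of libraries, and the value nearest to a call was the combination against vehicle (log2 fold change of 0.66 ± 0.23, adjusted p = 0.0544).

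BNIP3L (ENSG00000104765, chr8:26382898-26505636 on the plus strand) was called lower in OCUG-1 and higher in HuCCT1, both in the combination and at 10 µM. OCUG-1 had 89.3, 81.3 and 71.4 CPM in the combination, 86.7, 119 and 107 CPM with vehicle, 157, 150.2 and 149 CPM at 1.25 µM and 80.7, 71.9 and 91.9 CPM at 10 µM. Its 1.25 µM libraries lay above all others. BNIP3L rose at 1.25 µM (log2 fold change of 0.54 ± 0.12, adjusted p = 0.0103) and fell at 10 µM (log2 fold change of -0.36 ± 0.12, adjusted p = 0.0169) and in the combination (log2 fold change of -0.37 ± 0.12, adjusted p = 0.0146), each against vehicle, and fell on adding IACS-010759 (log2 fold change of -0.91 ± 0.12, adjusted p = 4.94e-06). The call at 1.25 µM was lost without vehicle replicate 1, at 0.43 and adjusted p = 0.0566. The call at 10 µM was lost without vehicle replicate 2 or 3 or 10 µM replicate 2, at -0.34 to -0.25 and adjusted p = 0.0502 to 0.102, and the call in the combination against vehicle without vehicle replicate 2 or combination replicate 3, at -0.31 to -0.27 and adjusted p = 0.0658 to 0.0919.

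HuCCT1 had BNIP3L at 118, 129.7 and 115 CPM in the combination, 98.4, 89.8 and 89.2 CPM with vehicle, 82.5, 81.6 and 84.3 CPM at 1.25 µM and 134, 142 and 142 CPM at 10 µM. No library of the 10 µM arm or the combination overlapped the vehicle or 1.25 µM libraries. BNIP3L rose at 10 µM (log2 fold change of 0.59 ± 0.09, adjusted p = 0.000178) and in the combination (log2 fold change of 0.39 ± 0.09, adjusted p = 0.00601) against vehicle, and rose on adding IACS-010759 (log2 fold change of 0.54 ± 0.09, adjusted p = 0.00114). PNMA2, on the opposite strand, shares 330 exon bases with BNIP3L, 7.66% of the exon bases of BNIP3L. PNMA2 moved the same way as BNIP3L on adding IACS-010759, with log2 fold changes of -0.79 ± 0.11, adjusted p = 8.61e-06 in OCUG-1 and 0.89 ± 0.19, adjusted p = 0.00844 in HuCCT1, at counts of up to 40.7% of BNIP3L's in a library. In OCUG-1 PNMA2 was also called in the direction of BNIP3L at 1.25 µM (0.38 ± 0.11) and 10 µM (-0.42 ± 0.11) against vehicle. The same held there in the combination against vehicle (-0.41 ± 0.11) and at 10 µM against 1.25 µM (-0.80 ± 0.11). In HuCCT1 both were called higher at 10 µM, where PNMA2 gave 0.60 ± 0.18 against vehicle and 1.48 ± 0.19 against 1.25 µM. The genes parted in HuCCT1 in the combination against vehicle, where BNIP3L rose and PNMA2 gave a log2 fold change of 0.005 ± 0.18, adjusted p = 0.99. They also parted there at 1.25 µM, where PNMA2 fell (log2 fold change of -0.88 ± 0.19, adjusted p = 0.00587) and BNIP3L was not called. Its part in the BNIP3L counts was not tested.

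NDRG1, a gene induced by hypoxia, nutrient stress and metal chelation (ENSG00000104419, chr8:133237171-133302022 on the minus strand), was called higher in both lines on adding IACS-010759. In OCUG-1 it had 168, 108 and 124 CPM in the combination, 24.1, 23.3 and 23.4 CPM with vehicle, 21.5, 24.3 and 26.2 CPM at 1.25 µM and 107, 108 and 119 CPM at 10 µM. The 1.25 µM libraries spanned the vehicle libraries, and those of the other 2 drug arms lay far above both. NDRG1 rose 5.56-fold in the combination against 1.25 µM (log2 fold change of 2.47 ± 0.14, adjusted p = 1.56e-10) and 4.71-fold at 10 µM against vehicle (log2 fold change of 2.24 ± 0.14, adjusted p = 2.15e-10). At 1.25 µM against vehicle its log2 fold change was 0.02 ± 0.14, adjusted p = 0.933.

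In HuCCT1, NDRG1 had 10.3, 9.29 and 9.14 CPM in the combination, 3.5, 2.85 and 6.22 CPM with vehicle, 1.32, 2.09 and 4.16 CPM at 1.25 µM and 7.0, 5.16 and 20.9 CPM at 10 µM. Replicate 3 was the highest library of the vehicle, 1.25 µM and 10 µM arms, the same 3 libraries that stood apart over all genes. NDRG1 rose in the combination against 1.25 µM (log2 fold change of 1.93 ± 0.54, adjusted p = 0.0388) and at 10 µM against 1.25 µM (log2 fold change of 2.11 ± 0.54, adjusted p = 0.0131), and gave a log2 fold change of 1.19 ± 0.50, adjusted p = 0.12 in the combination against vehicle. Without those 3 libraries the log2 fold changes were 2.44, adjusted p = 3.88e-11 for the combination against 1.25 µM, 1.80, adjusted p = 1.04e-07 for 10 µM against 1.25 µM, and 1.58, adjusted p = 1.92e-08 for the combination against vehicle. At 10 µM against vehicle NDRG1 had a log2 fold change of 1.37 ± 0.50, adjusted p = 0.0679 with them and of 0.94, adjusted p = 0.000402 without them. The call in the combination against 1.25 µM was lost without 1.25 µM replicate 1 or 2 or any combination replicate, at 1.65 to 1.96 and adjusted p = 0.0893 to 0.148, and the call at 10 µM against 1.25 µM without 1.25 µM replicate 1 or 2, at 1.83 to 1.97 and adjusted p = 0.0556 to 0.0604. Without 10 µM replicate 3 alone, the log2 fold change of NDRG1 at 10 µM was 1.28 against 1.25 µM, still called, and 0.54 against vehicle.

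P4HA1 and P4HA2 encode catalytic subunits of the enzyme that hydroxylates prolines in collagen. P4HA1 (ENSG00000122884, chr10:73007217-73096974 on the minus strand) had 87.9, 76.7 and 62.6 CPM in the OCUG-1 combination, 51, 62.8 and 70.1 CPM with vehicle, 95.3, 108 and 103 CPM at 1.25 µM and 90.4, 92.8 and 106 CPM at 10 µM. Its libraries at 1.25 and 10 µM lay above all vehicle and combination libraries. P4HA1 rose at 1.25 µM (log2 fold change of 0.74 ± 0.13, adjusted p = 0.0021) and at 10 µM (log2 fold change of 0.65 ± 0.13, adjusted p = 0.000258) against vehicle, and fell on adding IACS-010759 to 1.25 µM (log2 fold change of -0.43 ± 0.13, adjusted p = 0.0079). Scaling by library size alone ended that last call, at -0.29 and adjusted p = 0.0588. HuCCT1 had 30.5, 30.3 and 33.4 CPM in the combination, 25.5, 24.4 and 27.6 CPM with vehicle, 24.9, 31 and 32 CPM at 1.25 µM and 34.8, 32.8 and 39.9 CPM at 10 µM, where it rose against vehicle (log2 fold change of 0.47 ± 0.12, adjusted p = 0.00702).

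P4HA2 (ENSG00000072682, chr5:132191838-132295315 on the minus strand) was higher than vehicle in every OCUG-1 drug arm. It had 145, 128 and 121 CPM in the combination, 69.2, 77.6 and 75.1 CPM with vehicle, 102, 112 and 115 CPM at 1.25 µM and 138, 143 and 143 CPM at 10 µM, and no drug library overlapped the vehicle libraries. P4HA2 rose at 1.25 µM (log2 fold change of 0.57 ± 0.10, adjusted p = 0.00166), at 10 µM (log2 fold change of 0.94 ± 0.10, adjusted p = 1.62e-07) and in the combination (log2 fold change of 0.82 ± 0.10, adjusted p = 9.6e-07) against vehicle. The smaller step on adding IACS-010759 (log2 fold change of 0.25 ± 0.10, adjusted p = 0.0318) lost its call under DESeq2, at 0.22 and adjusted p = 0.0549, and without any of 8 single libraries (vehicle replicate 3, 1.25 µM replicates 1 and 2, 10 µM replicates 2 and 3, and the 3 combination replicates), at log2 fold changes of 0.11 to 0.27 and adjusted p = 0.0502 to 0.376. That call was also lost under relative log expression scaling, with no filter on low counts and with a replicate block. It was lost too without the genes of mitochondrial DNA and with only the groups compared. In these settings the log2 fold change was 0.18 to 0.25 and adjusted p = 0.0515 to 0.159. In HuCCT1 it had 87.7, 86.8 and 90.1 CPM in the combination, 66.6, 60.3 and 72.3 CPM with vehicle, 64.8, 68.1 and 79.7 CPM at 1.25 µM and 79, 76.3 and 107 CPM at 10 µM. There it rose in the combination (log2 fold change of 0.41 ± 0.13, adjusted p = 0.0308) and at 10 µM (log2 fold change of 0.40 ± 0.13, adjusted p = 0.0308) against vehicle. The call in the combination was lost without vehicle replicate 1 or 2 or any combination replicate, at 0.34 to 0.43 and adjusted p = 0.0709 to 0.11, and that at 10 µM without vehicle replicate 1 or 2 or 10 µM replicate 3, at 0.23 to 0.40 and adjusted p = 0.0824 to 0.134.

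EGLN3 encodes an oxygen-using HIF prolyl hydroxylase whose own gene is a HIF target (ENSG00000129521, chr14:33924231-34462774 on the minus strand). OCUG-1 had 16.4, 18.8 and 12.6 CPM in the combination, 16.6, 19.3 and 18.5 CPM with vehicle, 29.6, 29.6 and 35.8 CPM at 1.25 µM and 21.3, 15.6 and 23.6 CPM at 10 µM. Its 1.25 µM libraries lay above all others, while those of the remaining arms overlapped. EGLN3 rose at 1.25 µM against vehicle (log2 fold change of 0.80 ± 0.16, adjusted p = 0.00503) and fell on adding IACS-010759 (log2 fold change of -0.99 ± 0.16, adjusted p = 4.21e-05), and 10 µM against vehicle gave a log2 fold change of 0.15 ± 0.16, adjusted p = 0.431. In HuCCT1 it had 1.29, 0.848 and 1.27 CPM in the combination, 0.318, 0.846 and 0.338 CPM with vehicle, 0.689, 1.07 and 0.787 CPM at 1.25 µM and 0.911, 1.21 and 1.01 CPM at 10 µM. It rose there in the combination against vehicle (log2 fold change of 1.24 ± 0.38, adjusted p = 0.0326). This call was lost without vehicle replicate 1 or 3 or combination replicate 1 or 3, at 0.98 to 1.16 and adjusted p = 0.102 to 0.146, and without the 3 libraries that stood apart, at 1.05, adjusted p = 0.0575.

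At the low sorafenib dose, the members that were called in OCUG-1 were all called higher. At 1.25 µM against vehicle, 6 of 10 rose and 0 fell, where 5.92% of the 20511 genes tested rose and 4.61% fell (10.5% in all). The median log2 fold change was 0.56 over the 10 genes and -0.03 over all genes tested. In edgeR 0 members were lower at an unadjusted p under 0.05, and DESeq2 called 7 higher and 0 lower. Scaling by library size alone moved the share of higher genes among all called to 28.8%, against 56.2% with the trimmed mean, and leaving out vehicle replicate 1 or 3 or 1.25 µM replicate 2 or 3 took the genes called to between 653 and 1082, against 2160, while the members called numbered 5 to 7 without any 1 library. The 10 genes were chosen as known HIF targets with earlier results of these data known, so the count describes them and no more.

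At 10 µM in OCUG-1, 6 members rose and 3 fell against vehicle, beside 32.4% of all genes higher and 30.7% lower (63.1% in all). In the combination against 1.25 µM, 4 rose and 4 fell, beside 31.4% of all genes higher and 26.7% lower (58.1% in all). Against vehicle 5 rose and 2 fell, beside 31.5% higher and 28.1% lower (59.5% in all). Between the doses, 10 µM against 1.25 µM, 5 rose and 4 fell, beside 31.6% higher and 29% lower (60.5% in all). Since most genes of any kind were called in these comparisons, the members' counts say little about them as a group. Their median log2 fold changes were 0.69 at 10 µM against vehicle, 0.04 in the combination against 1.25 µM and 0.43 against vehicle. The comparisons with vehicle share the vehicle libraries, and those with 1.25 µM share its libraries.

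In HuCCT1 at 1.25 µM, 0 of 10 rose and VEGFA alone fell, beside 9.98% of 19576 genes higher and 8.5% lower (18.5% in all). edgeR gave 2 members higher at an unadjusted p under 0.05, and DESeq2 called 0 higher. At 10 µM 3 members rose and 2 fell against vehicle, beside 13% of all genes higher and 11.2% lower (24.2% in all), with a median log2 fold change of 0.51 over the members and 0.009 over all genes. The combination against 1.25 µM had 3 higher and 0 lower beside 5.06% of all genes higher and 6.57% lower (11.6% in all), with 0 members lower at an unadjusted p under 0.05 in edgeR and 0 called lower by DESeq2. Against vehicle the combination had 4 higher and 1 lower beside 9.94% of all genes higher and 10.1% lower (20.1% in all). For 10 µM against 1.25 µM 2 rose and 2 fell beside 14.4% of all genes higher and 13.7% lower (28.2% in all). Leaving out a single library moved the count for the combination against 1.25 µM to between 1 and 4 and that against vehicle to between 2 and 7, so these counts rest on single libraries. Over all genes, leaving out single libraries (vehicle replicate 1 or 3, 1.25 µM replicate 1 or 2, or any combination replicate) took the genes called to as few as 1710, against 3616, at 1.25 µM, to as few as 877, against 2276, in the combination against 1.25 µM, to as few as 2342, against 3931, in the combination against vehicle, and to as few as 3472, against 5518, at 10 µM against 1.25 µM. Scaling by library size alone moved the share of higher genes among those called to 26.7%, against 54.0% with the trimmed mean, at 1.25 µM, to 82.4%, against 43.5%, in the combination against 1.25 µM and to 77.5%, against 51.2%, at 10 µM against 1.25 µM. Without the 3 libraries that stood apart, the members called in either direction numbered 3 at 1.25 µM and 6 at 10 µM against vehicle, 4 in the combination against 1.25 µM, 6 in the combination against vehicle and 6 at 10 µM against 1.25 µM, an alternative chosen after seeing the data. The shares of all genes called without these libraries are not given here, so those counts are not set against a background.

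**Figure D3:**
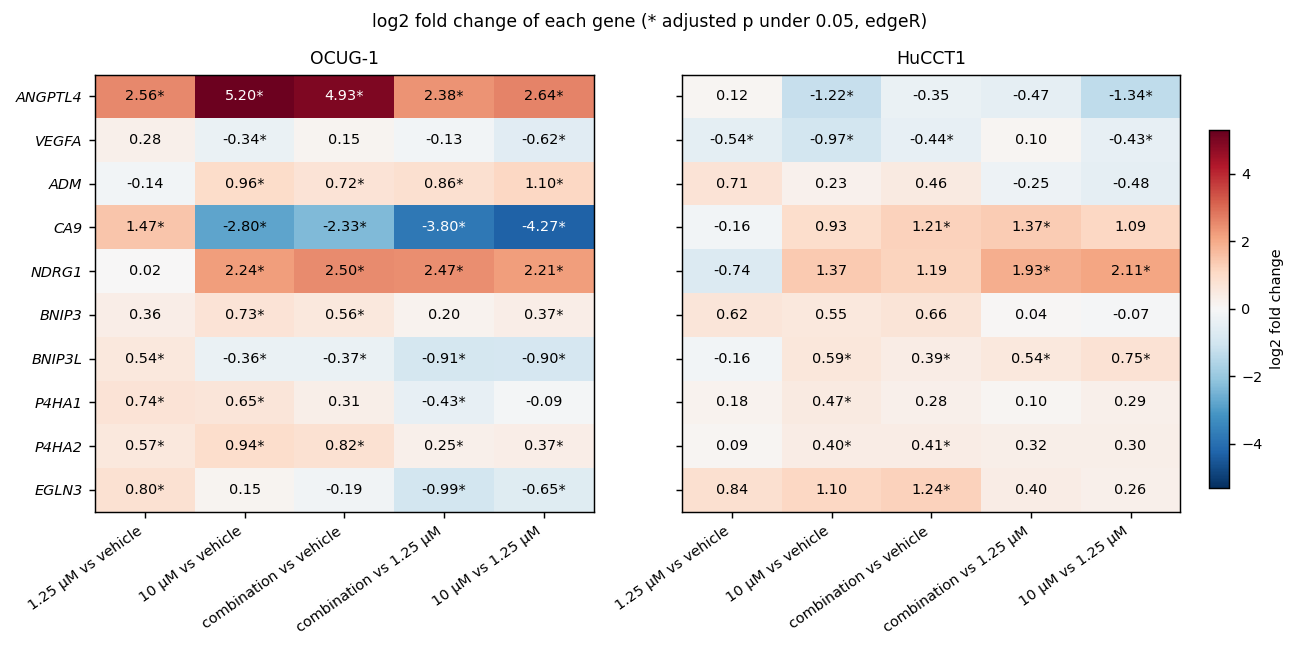
log2 fold changes of the 10 genes in the 5 comparisons of each line, with an asterisk where the adjusted p was under 0.05. In OCUG-1 the column for 1.25 µM holds 6 calls, all higher, and the column for the combination against 1.25 µM holds 4 higher and 4 lower.

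**Figure D4:**
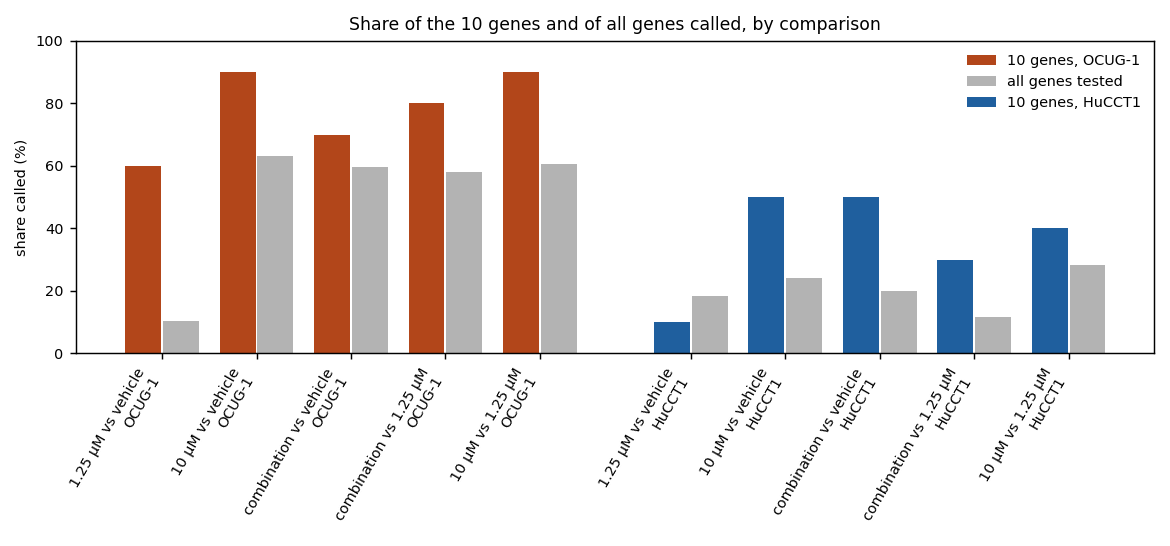
Share of the 10 genes (coloured bars) and of all genes tested (grey bars) called in either direction at an adjusted p under 0.05, in percent, by comparison and line. For OCUG-1 at 1.25 µM the shares are 60% and 10.5%, whereas at 10 µM and in the combination most genes of any kind are called.

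The lines differed before any drug was added. In vehicle cells, 6 of the 10 genes were higher in OCUG-1 than in HuCCT1 and 1 was lower, beside 35.6% of 22944 genes higher and 32.7% lower (68.3% in all). EGLN3 (log2 difference of 5.08 ± 0.26, adjusted p = 1.47e-16) and BNIP3 (log2 difference of 4.54 ± 0.18, adjusted p = 2.83e-19) were set widest apart. CA9 (2.67 ± 0.37), ADM (2.56 ± 0.29), NDRG1 (2.32 ± 0.41) and P4HA1 (1.08 ± 0.13) were also higher in OCUG-1, as log2 differences ± SE. VEGFA was lower in OCUG-1 (log2 difference of -0.31 ± 0.12, adjusted p = 0.0215), a call lost without vehicle replicate 2 of either line, at a log2 difference of -0.27 and adjusted p = 0.0713 to 0.0731, and under library-size scaling, at -0.16 and adjusted p = 0.24. ANGPTL4 (log2 difference of -0.24 ± 0.20, adjusted p = 0.293), BNIP3L (log2 difference of 0.008 ± 0.11, adjusted p = 0.953) and P4HA2 (log2 difference of -0.01 ± 0.11, adjusted p = 0.943) were not called.

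Levels can be compared between genes only per transcript length, here as vehicle CPM per kilobase of the longest annotated coding transcript. In OCUG-1 VEGFA led at 84.9, ADM followed at 40.7, and BNIP3L at 28.9, BNIP3 at 26.2, P4HA2 at 22.1 and P4HA1 at 21.5 came close together. EGLN3 stood at 6.37, NDRG1 at 6.28, ANGPTL4 at 1.99 and CA9 at 1.98 CPM per kilobase. In HuCCT1 VEGFA again led at 94.0, before BNIP3L at 25.6, P4HA2 at 19.8, P4HA1 at 9.08 and ADM at 6.21. ANGPTL4 at 2.07, NDRG1 at 1.12, BNIP3 at 1.01, CA9 at 0.267 and EGLN3 at 0.176 CPM per kilobase closed the order. ANGPTL4 and CA9, the genes with the widest ranges across the OCUG-1 arms, were thus the lowest per length in its vehicle cells.

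The difference between the lines' responses was tested directly as an interaction. At 1.25 µM against vehicle, 5 members differed, all with the OCUG-1 change above that of HuCCT1, beside 4.96% of all genes with the OCUG-1 change higher and 4.69% with it lower (9.65% in all). ANGPTL4 differed most (difference of log2 fold changes of 2.48 ± 0.27, adjusted p = 1.09e-06), followed by VEGFA (difference of log2 fold changes of 0.85 ± 0.17, adjusted p = 0.00161) and BNIP3L (difference of log2 fold changes of 0.73 ± 0.15, adjusted p = 0.00283). P4HA1 (difference of log2 fold changes of 0.59 ± 0.18, adjusted p = 0.0379) and P4HA2 (difference of log2 fold changes of 0.51 ± 0.16, adjusted p = 0.043) were close to the threshold, and the call of P4HA1 was lost without any 1 of 7 libraries and that of P4HA2 without any 1 of 13. Without 1 of 6 libraries (HuCCT1 vehicle replicate 1 or 3, HuCCT1 1.25 µM replicate 2, OCUG-1 vehicle replicate 1, OCUG-1 1.25 µM replicate 2 or 3) the count was 3.

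At 10 µM against vehicle, ANGPTL4 differed most (difference of log2 fold changes of 6.35 ± 0.28, adjusted p = 3.78e-16), and VEGFA (0.56 ± 0.17) and P4HA2 (0.47 ± 0.16) also differed with the OCUG-1 change above that of HuCCT1. CA9 (difference of log2 fold changes of -3.79 ± 0.55, adjusted p = 1.98e-06), BNIP3L (difference of log2 fold changes of -1.02 ± 0.15, adjusted p = 3.58e-06) and EGLN3 (difference of log2 fold changes of -1.04 ± 0.39, adjusted p = 0.0295) differed the other way. These 6 of 10 stood beside 20.7% of all genes with the OCUG-1 change higher and 23.1% with it lower (43.8% in all). The EGLN3 call was lost without HuCCT1 vehicle replicate 1 or 3, HuCCT1 10 µM replicate 2 or OCUG-1 10 µM replicate 2, at -0.86 to -0.77, and that of P4HA2 without HuCCT1 vehicle replicate 3 or HuCCT1 10 µM replicate 1, at 0.41.

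On adding IACS-010759 to 1.25 µM sorafenib, 5 of 10 members differed between the lines, beside 18.6% of all genes with the OCUG-1 change higher and 20.2% with it lower (38.8% in all). ANGPTL4 rose in OCUG-1 more than in HuCCT1 (difference of log2 fold changes of 2.73 ± 0.25, adjusted p = 7.97e-10). CA9 (difference of log2 fold changes of -5.29 ± 0.54, adjusted p = 6.37e-09), BNIP3L (difference of log2 fold changes of -1.57 ± 0.15, adjusted p = 3.38e-09), EGLN3 (difference of log2 fold changes of -1.50 ± 0.35, adjusted p = 0.000988) and P4HA1 (difference of log2 fold changes of -0.65 ± 0.18, adjusted p = 0.0047) changed less, or in the negative direction, in OCUG-1. CA9 and BNIP3L were called in both lines with opposite signs, lower in OCUG-1 and higher in HuCCT1. Their opposite-strand genes also differed between the lines in this step. The difference of log2 fold changes was -2.53 ± 0.35, adjusted p = 5.71e-06 for ARHGEF39 and -1.79 ± 0.22, adjusted p = 1.5e-07 for PNMA2. Those at each sorafenib dose are given with the flagged results below. NDRG1, called higher in both lines, had a difference of log2 fold changes of 0.43 ± 0.59, adjusted p = 0.614.

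**Figure D5:**
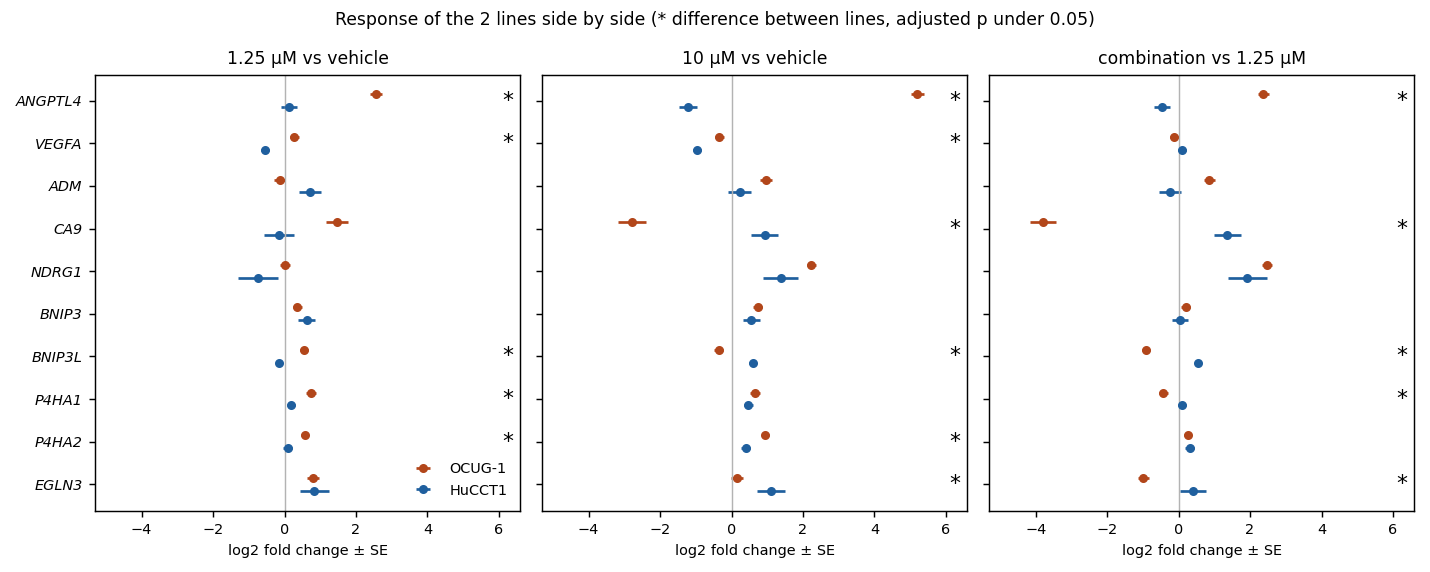
log2 fold change ± SE of each gene in OCUG-1 (orange) and HuCCT1 (blue) for 3 contrasts, with an asterisk where the difference between lines had an adjusted p under 0.05. On adding IACS-010759 (right) CA9 lies at -3.80 in OCUG-1 and at 1.37 in HuCCT1, while NDRG1 is above 0 in both.

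The genes of the HIF pathway itself were measured beside its targets. In OCUG-1, transcripts of HIF1A, an oxygen-labile alpha subunit, fell in the combination against 1.25 µM (log2 fold change of -1.07 ± 0.24, adjusted p = 0.00195), as did those of the other alpha subunit, EPAS1 (log2 fold change of -0.88 ± 0.16, adjusted p = 0.000135), and of their partner ARNT (log2 fold change of -0.47 ± 0.10, adjusted p = 0.000474). At 10 µM against vehicle EPAS1 (log2 fold change of -0.68 ± 0.16, adjusted p = 0.00108) and ARNT (log2 fold change of -0.44 ± 0.10, adjusted p = 0.00065) fell and HIF1A gave a log2 fold change of -0.44 ± 0.24, adjusted p = 0.122. EGLN1, the main HIF prolyl hydroxylase, rose at 10 µM (log2 fold change of 1.34 ± 0.22, adjusted p = 3.41e-05) and in the combination against 1.25 µM (log2 fold change of 0.68 ± 0.22, adjusted p = 0.0136), averaging 5.98 CPM at 10 µM against 2.36 CPM with vehicle. VHL gave a log2 fold change of 0.02 ± 0.09, adjusted p = 0.865 at 10 µM, and HIF1AN, an asparagine hydroxylase that restrains HIF, rose (log2 fold change of 0.30 ± 0.12, adjusted p = 0.0424). At 1.25 µM, where 6 of the 10 targets rose, HIF1A (log2 fold change of 0.24 ± 0.24, adjusted p = 0.552) and EPAS1 (log2 fold change of 0.17 ± 0.16, adjusted p = 0.528) were not called. Other genes of the pathway were called at that dose, as counted below.

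In HuCCT1, EPAS1 fell at 1.25 µM against vehicle (log2 fold change of -1.10 ± 0.29, adjusted p = 0.0214), and HIF1AN fell there too (log2 fold change of -0.44 ± 0.11, adjusted p = 0.0109). On adding IACS-010759 HIF1A gave a log2 fold change of 0.33 ± 0.21, adjusted p = 0.349 and EPAS1 a log2 fold change of 0.69 ± 0.29, adjusted p = 0.146. The lines differed in that step for HIF1A (difference of log2 fold changes of -1.51 ± 0.37, adjusted p = 0.00287), EPAS1 (difference of log2 fold changes of -1.68 ± 0.37, adjusted p = 0.000982) and ARNT (difference of log2 fold changes of -0.91 ± 0.17, adjusted p = 0.000102). These are transcripts, and the amount of HIF protein, which oxygen controls, was not measured. Of the whole list of HIF subunits, hydroxylases and degradation factors, 8 of 18 rose and 7 fell at 10 µM in OCUG-1, where 32.4% of all genes rose and 30.7% fell. At 1.25 µM in OCUG-1, 4 of the 18 rose and 3 fell, beside 5.92% and 4.61% of all genes. In HuCCT1, 1 of 17 tested rose and 3 fell at 1.25 µM, beside 9.98% and 8.5%. At 10 µM in HuCCT1, 0 rose and 4 fell, beside 13% and 11.2%. There edgeR gave 0 higher at an unadjusted p under 0.05, and DESeq2 called 0 higher.

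Other known HIF targets, beyond the 10 and outside glycolysis, were mostly not called at the low dose in OCUG-1, and those called were nearly all higher. At 1.25 µM 9 of 31 tested rose and 1 fell, with a median log2 fold change of 0.19 against -0.03 over all genes, of which 5.92% rose and 4.61% fell. Among them were STC2, a secreted stanniocalcin (log2 fold change of 0.70 ± 0.10, adjusted p = 0.000498), LOXL2, which cross-links collagen (log2 fold change of 0.84 ± 0.13, adjusted p = 0.000636), and PLOD1, a collagen lysyl hydroxylase (log2 fold change of 0.41 ± 0.09, adjusted p = 0.00931). In the combination against 1.25 µM 11 rose and 14 fell, beside 31.4% and 26.7% of all genes, with STC2 higher (log2 fold change of 2.55 ± 0.11, adjusted p = 4.7e-12), MAFF higher (log2 fold change of 1.58 ± 0.12, adjusted p = 6.94e-09) and WSB1 lower (log2 fold change of -1.66 ± 0.11, adjusted p = 1.49e-09). CA12, the other cell-surface carbonic anhydrase under HIF control, fell with CA9 in that step (log2 fold change of -1.43 ± 0.13, adjusted p = 4.64e-08).

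In HuCCT1 5 of 31 rose and 4 fell at 1.25 µM, beside 9.98% and 8.5% of all genes, and 4 rose and 3 fell at 10 µM, beside 13% and 11.2%. LOX, which cross-links collagen, rose at 10 µM (log2 fold change of 1.59 ± 0.19, adjusted p = 3.58e-05) and on adding IACS-010759 (log2 fold change of 0.68 ± 0.19, adjusted p = 0.0312). CA12 rose at 1.25 µM (log2 fold change of 1.07 ± 0.28, adjusted p = 0.0146), at 10 µM (log2 fold change of 1.47 ± 0.27, adjusted p = 0.000981) and in the combination (log2 fold change of 1.23 ± 0.27, adjusted p = 0.00443) against vehicle, where it averaged 1.55 CPM. Both carbonic anhydrases were thus called lower in OCUG-1 and higher in HuCCT1 in the combination against vehicle, with log2 fold changes of -1.50 ± 0.13 for CA12 and -2.33 ± 0.38 for CA9 in OCUG-1, and of 1.23 ± 0.27 for CA12 and 1.21 ± 0.37 for CA9 in HuCCT1. ARHGEF39, which shares exon bases with CA9, was called likewise, at -2.71 ± 0.18 in OCUG-1 and 0.98 ± 0.26 in HuCCT1. In HuCCT1, CA9 averaged only 1.03 CPM in the combination and 0.43 CPM with vehicle. Its call there was lost without any 1 of 5 libraries, and with no filter on low counts (adjusted p = 0.0801).

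The HIF targets of glycolysis gave a side-by-side reading. In OCUG-1 7 of 21 rose and 2 fell at 1.25 µM, beside 5.92% and 4.61% of all genes. Among those that rose were SLC16A3, the lactate exporter (log2 fold change of 0.47 ± 0.11, adjusted p = 0.0117), and the glycolytic enzyme ENO1 (log2 fold change of 0.45 ± 0.12, adjusted p = 0.0254). On adding IACS-010759 5 rose and 10 fell, beside 31.4% and 26.7% of all genes, with SLC16A3 (log2 fold change of -1.37 ± 0.11, adjusted p = 1.1e-08) and ENO2 (log2 fold change of -1.51 ± 0.13, adjusted p = 1.87e-08) lower and HK2 higher (log2 fold change of 1.40 ± 0.14, adjusted p = 9.92e-08). In HuCCT1 the same step had 2 higher, PDK1 (log2 fold change of 0.63 ± 0.18, adjusted p = 0.0342) and ALDOC (log2 fold change of 0.51 ± 0.16, adjusted p = 0.0439), and 0 lower, beside 5.06% and 6.57% of all genes. In that step edgeR gave 1 gene of this list lower at an unadjusted p under 0.05 and DESeq2 called 0 lower.

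Relatives and receptors of the members were examined as well. PGF, a placental growth factor related to VEGFA, rose in OCUG-1 at 1.25 µM (log2 fold change of 0.87 ± 0.19, adjusted p = 0.0103), at 10 µM (log2 fold change of 3.46 ± 0.19, adjusted p = 7.24e-11) and in the combination against 1.25 µM (log2 fold change of 2.00 ± 0.18, adjusted p = 3.43e-08). NRP1, a co-receptor of VEGFA, rose at 1.25 µM in OCUG-1 (log2 fold change of 0.52 ± 0.11, adjusted p = 0.00699) and fell at 10 µM in HuCCT1 (log2 fold change of -0.64 ± 0.10, adjusted p = 0.000221). ADM2, a relative of ADM, rose in OCUG-1 in the combination against 1.25 µM (log2 fold change of 1.51 ± 0.16, adjusted p = 1.85e-07) and fell in HuCCT1 in the same step (log2 fold change of -0.53 ± 0.14, adjusted p = 0.0213). NDRG2, a relative of NDRG1, fell in OCUG-1 where NDRG1 rose, on adding IACS-010759 (log2 fold change of -1.94 ± 0.21, adjusted p = 4.23e-07). Of the family list 4 of 27 rose and 1 fell at 1.25 µM in OCUG-1, beside 5.92% and 4.61% of all genes, and 11 rose and 12 fell in the combination against vehicle, beside 31.5% and 28.1%. CA12 and EGLN1 are also in this list.

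The last lists hold genes of other pathways known to act on some members. Targets of the PPAR receptors, among which ANGPTL4 is usually counted, had 0 of 14 higher and 0 lower at 1.25 µM in OCUG-1, where ANGPTL4 rose, beside 5.92% and 4.61% of all genes. At an unadjusted p under 0.05 edgeR gave 5 higher and 0 lower, and DESeq2 called 1 and 0. At 10 µM 5 rose, among them PDK4 (log2 fold change of 1.88 ± 0.20, adjusted p = 1.88e-07), and 5 fell, among them PLIN5 (log2 fold change of -3.75 ± 0.33, adjusted p = 2.07e-08) and ACADVL (log2 fold change of -1.20 ± 0.12, adjusted p = 1.27e-07), beside 32.4% and 30.7% of all genes. On adding IACS-010759 2 rose and 8 fell, beside 31.4% and 26.7% of all genes, while ANGPTL4 rose. The part of the PPAR receptors in the changes of ANGPTL4 was not tested.

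Targets of ATF4, the transcription factor of the integrated stress response, rose in OCUG-1 together with NDRG1, ADM and ANGPTL4. At 10 µM against vehicle 16 of 18 rose and 1 fell, beside 32.4% and 30.7% of all genes, with a median log2 fold change of 1.38 against 0.0007 over all genes. In the combination against 1.25 µM 15 rose and 2 fell, beside 31.4% and 26.7% of all genes, with a median log2 fold change of 1.66 against 0.06. SLC7A5 (log2 fold change of 2.61 ± 0.10, adjusted p = 2.09e-12) and SLC3A2 (log2 fold change of 2.65 ± 0.11, adjusted p = 6.35e-12), which together import large neutral amino acids, and SESN2 (log2 fold change of 2.71 ± 0.13, adjusted p = 1.81e-11) were among those that rose in that step. STC2 belongs to this list and to that of other HIF targets. In HuCCT1 the combination against vehicle had 0 of 17 higher and 10 lower, beside 9.94% and 10.1% of all genes, with CHAC1 (log2 fold change of -1.60 ± 0.15, adjusted p = 3.67e-06) and SLC7A5 (log2 fold change of -0.99 ± 0.10, adjusted p = 8.83e-06) lower. At an unadjusted p under 0.05 edgeR gave 0 of them higher, and DESeq2 called 0. NDRG1 in HuCCT1 was called higher on adding IACS-010759 in a step with 0 ATF4 targets higher and 4 lower, beside 5.06% and 6.57% of all genes (at an unadjusted p under 0.05, 0 higher; by DESeq2, 0). NDRG1 was also called higher in HuCCT1 at 10 µM against 1.25 µM. In that comparison 6 of 17 ATF4 targets rose and 2 fell, beside 14.4% and 13.7% of all genes, with a median log2 fold change of 0.36. The part of stress signalling in the members' changes was not tested.

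For members whose group means spanned at least 2-fold within a line, the genes with the most similar pattern over the 8 groups were found among 10767 genes, by root mean square distance of log2(CPM + 1) centred within each line. Nearest to ANGPTL4 were CASC19 at 0.487, CCL26 at 0.492 and ANKRD1 at 0.578. CA9 lay nearest to VSNL1 at 0.229, TUBA1A at 0.230 and ACSS2 at 0.252. For NDRG1 the nearest were RNF19B at 0.293, YOD1 at 0.307 and AOX1 at 0.324. EGLN3 lay nearest to FEZ1 at 0.102, MSMO1 at 0.104 and CD9 at 0.106. It passed the 2-fold span only in HuCCT1 (2.27-fold, between means of 0.50 and 1.14 CPM), and spanned 1.99-fold in OCUG-1. ADM also spanned 2-fold, with its 3 nearest genes at 0.097 to 0.106, but the naming rule covers 4 members. A smaller distance means a closer pattern, and the distances of low genes such as CA9 and EGLN3 in HuCCT1 are compressed by the added 1 CPM.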

How the data were processed

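Paired-end mRNA libraries from 24 cultures were sequenced (the labels' protocols). For each gene the authors deposited unnormalised read counts. The submitters' processing notes name bcl2fastq, fastp 1.3.2, HISAT2 2.2.2, featureCounts of Subread 2.1.1, MultiQC 1.33, R 4.4.1, DESeq2 1.42.1 and build GRCh38. Which annotation was counted, whether strand was used and how multimapping reads were treated is not given in the sources used. Per the labels, 4 OCUG-1 libraries had extra runs, without saying which.

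Symbols came with 61481 of the 78724 identifiers, and gene positions from GENCODE 29. The main test was edgeR 4.0.16 quasi-likelihood (glmQLFit, robust; limma 3.58.1; R 4.3.3) on genes passing filterByExpr at a minimum count of 10, scaled by the trimmed mean of M values, with 12 libraries of a line in a fit, or 24 for comparisons between lines. It was run on simulated counts with independent libraries and few changed genes. Most OCUG-1 comparisons called most genes, so these simulations do not test the scaling there. SE is the fold change divided by the root of F. All 10 members passed the filter in each fit, and p-values measure the spread between biological replicates as labelled. Alternatives were other scalings, DESeq2 1.42.0, no filter, only the groups compared, a replicate block, no mitochondrial DNA genes and each library left out; leaving out 3 HuCCT1 libraries together was chosen after seeing the data.

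The members and lists were chosen with earlier results of these data known. All members are named. Each list names up to 4 genes, from those with the smallest adjusted p in a comparison. HIF1A, EPAS1, ARNT, VHL, EGLN1 and HIF1AN are named outside that limit, but not each of them is given for every comparison. A listed gene that this rule would name is not reported here. No label ties the replicate numbers to a shared culture or day, and same-numbered libraries did not all deviate together, so they were not treated as pairs.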

Additional observations from a re-analysis of the deposited data

Results flagged for a closer look

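The response to the same drug differed between OCUG-1 and HuCCT1, by a test of the difference itself, for 16 combinations of gene and contrast. Values are log2 fold changes in OCUG-1 minus those in HuCCT1, from edgeR's quasi-likelihood test with Benjamini-Hochberg adjustment. At 1.25 µM sorafenib against vehicle they were 2.48 for ANGPTL4, 0.85 for VEGFA, 0.73 for BNIP3L, 0.59 for P4HA1 and 0.51 for P4HA2. At 10 µM against vehicle they were 6.35 for ANGPTL4, -3.79 for CA9, 0.56 for VEGFA, -1.02 for BNIP3L, 0.47 for P4HA2 and -1.04 for EGLN3. For the combination against 1.25 µM they were 2.73 for ANGPTL4, -5.29 for CA9, -1.57 for BNIP3L, -0.65 for P4HA1 and -1.50 for EGLN3. The genes on the opposite strand of CA9 and BNIP3L were called too. ARHGEF39, which overlaps CA9, gave -3.34 at 10 µM and -2.53 in the combination, and -1.25 at 1.25 µM, where CA9 was not called. PNMA2, which overlaps BNIP3L, gave 1.29 at 1.25 µM, -1.09 at 10 µM and -1.79 in the combination. Their part in the differences of CA9 and BNIP3L was not tested. The lines also differ in growth medium, and its part cannot be told apart from that of the line. Without the 3 HuCCT1 libraries that stood apart, EGLN3 at 10 µM gave -0.86, adjusted p = 0.133, and further calls were ADM at 10 µM (1.06, adjusted p = 0.0463), ADM in the combination (1.01, adjusted p = 0.0372), NDRG1 at 10 µM (1.23, adjusted p = 0.000364) and NDRG1 at 1.25 µM (0.93, adjusted p = 0.0452).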

How the results depend on the processing

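Of 3230 recomputed values of single members, 3053 stayed on their side of the threshold, 93 lost and 84 gained a call, and no called member changed direction; values that were not called could change sign. Members called in HuCCT1 at 1.25 µM numbered 1, and 2 under library-size scaling and 3 without the 3 libraries that stood apart; in the combination against vehicle they numbered 5, and 8 with only the groups compared in the fit. Leaving out 1 library at a time gave, in OCUG-1, 5 to 7 at 1.25 µM, 7 to 9 at 10 µM, 7 to 8 in the combination against 1.25 µM, 6 to 8 in the combination against vehicle and 8 to 9 at 10 µM against 1.25 µM. In HuCCT1 it gave 1 to 3, 4 to 6, 1 to 4, 2 to 7 and 3 to 6 in the same order. Between lines it gave 6 to 7 with vehicle, and for the differences of response 3 to 6 at 1.25 µM, 4 to 8 at 10 µM and 5 to 6 for adding IACS-010759. The shares of all genes called under these settings are not printed beside these counts, so they are not set against a background. The count of 1 in HuCCT1 at 1.25 µM was 3 without vehicle replicate 2 and 2 without 1.25 µM or 10 µM replicate 3; the cause was not tested. With no filter on low counts, HuCCT1 calls of CA9 in the combination (adjusted p = 0.0539 against 1.25 µM and 0.0801 against vehicle) and of NDRG1 (0.165 in the combination and 0.0828 at 10 µM, each against 1.25 µM) were lost. Library-size scaling shifted the median of all genes by up to 0.19 (log2) and ended the call of VEGFA at 10 µM against 1.25 µM in HuCCT1 (adjusted p = 0.107).

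No label ties the replicate numbers to a shared culture or day, and they were not taken to pair the libraries. Same-numbered deviations correlated at a median of -0.15 in OCUG-1 (-0.62 to 0.68) and 0.15 in HuCCT1 (-0.52 to 0.79). In these lines, 4 and 5 of 12 libraries correlated best with their own number. Some same-numbered libraries thus did deviate together, and the main fit leaves any such shared shift in the spread. With a replicate block the members called in OCUG-1 numbered 6 at 1.25 µM and 9 at 10 µM against vehicle, 7 in the combination against 1.25 µM, 7 against vehicle and 9 at 10 µM against 1.25 µM, and in HuCCT1 1, 7, 4, 7 and 6. The calls gained in HuCCT1 included NDRG1 and EGLN3 at 10 µM against vehicle. With the block the lines differed in 7 members with vehicle and in 5, 6 and 5 responses. The shares of all genes called with the block are not given here, so its counts are not set against a background.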
